A study of Mus musculus with 18 samples.

Results

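The genes followed here encode the signals by which cells of the skeleton call up osteoclasts, the cells that resorb bone. They are Tnfsf11 (RANKL), Tnfrsf11b (osteoprotegerin, OPG), Csf1, Il34 and Cxcl12, chosen by symbol from the count table as 5 of its 38243 genes. Their fragments were counted in 18 libraries from 6 female C57BL/6 embryos at E16.5, of which 3 were heterozygous Fgfr2+/S252W embryos, a mouse model of Apert syndrome, and 3 were their Fgfr2+/+ littermates. From each embryo, mandibular bone, Meckel's cartilage (MC) and mandibular condylar cartilage were laser captured, so that each tissue and genotype had 3 libraries and the 3 tissues of an embryo shared its identifier. Each mutant embryo thus had 1 mutant and 1 normal Fgfr2 allele, and the labels name no other engineered allele and no treatment.

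RANKL is held on the surface of osteoblasts, osteocytes and hypertrophic chondrocytes or shed from it, and binds the receptor RANK on osteoclast precursors, which then fuse and mature. OPG is a secreted decoy that binds RANKL and keeps it from RANK, so the balance of both is the usual measure of the drive to resorption. CSF1 and IL34 both bind the receptor CSF1R and keep the precursors alive and dividing, and CXCL12 draws precursors that carry CXCR4 toward bone and its vessels.

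Total counts per library lay between 8218548 and 15585778 fragments. The libraries differed in what else they held, between and within tissues. The mitochondrial share was 26.3% to 38.1% in MC and 19.4% to 27.7% in condylar cartilage. In bone it was 20.4% in Fgfr2+/+ replicate 3 against 36.0% and 34.8% in replicates 1 and 2, and 23.4% to 23.6% in the mutants. A single non-coding gene, Gm42418, took 24.1% to 39.4% of the fragments of MC and 10.9% to 20.2% of those of condylar cartilage. In bone it took 8.6% to 9.3% in Fgfr2+/+ and 5.6% to 6.5% in Fgfr2+/S252W embryos, without overlap. The 10 osteoblast markers, led by Col1a1, Ibsp and Spp1, summed to between 17250 and 35150 CPM (counts scaled to library size with TMM factors, which adjust for differences in RNA makeup) in the 6 bone libraries. The 10 chondrocyte markers, led by Col2a1, Hapln1 and Acan, summed to between 31830 and 39140 CPM in condylar cartilage, to between 374 and 8975 CPM in MC and to between 91.7 and 388 CPM in bone. Of 9 such markers tested, 8 were higher in MC than in bone and 9 were lower in MC than in condylar cartilage (limma), where 24.5% and 28.4% of all genes were. MC Fgfr2+/+ replicate 1, with 374 CPM, lay within the range of bone, and all 6 libraries are called MC by their label. Fgfr2 itself was counted in every library, with between 1171 and 6061 fragments, and gene counts do not distinguish the 2 alleles.

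All members lie on GRCm38 and were counted over their exons as annotated by Ensembl release 75. Tnfsf11 lies on the minus strand at chr14:78277445-78308043, Tnfrsf11b on the minus strand at chr15:54250619-54278484 and Csf1 on the minus strand at chr3:107741048-107760469. Il34 lies on the minus strand at chr8:110741840-110805903, and Cxcl12 on the plus strand at chr6:117168535-117181367. The exons of Il34 share bases with Gm15894 and Gm15895, so its few fragments are uncertain in their source. RefSeq promoters were given for 3 of the 5 members. The 250 bases before the annotated start of these 3 are printed because all 3 genes had higher levels in bone than in cartilage, with capitals for the letters searched on both strands.
Tnfsf11, chr14:78308044-78308293, minus strand: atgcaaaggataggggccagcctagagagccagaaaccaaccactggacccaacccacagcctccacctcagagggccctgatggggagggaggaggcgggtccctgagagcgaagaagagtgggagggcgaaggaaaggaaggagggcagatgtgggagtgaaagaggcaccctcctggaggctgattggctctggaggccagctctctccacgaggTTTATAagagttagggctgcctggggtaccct
Csf1, chr3:107760470-107760719, minus strand: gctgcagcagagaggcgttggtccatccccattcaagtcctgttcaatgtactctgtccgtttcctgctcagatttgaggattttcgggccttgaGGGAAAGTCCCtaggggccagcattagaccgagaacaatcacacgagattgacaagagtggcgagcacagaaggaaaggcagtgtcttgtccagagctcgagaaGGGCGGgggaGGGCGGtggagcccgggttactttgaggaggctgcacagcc
Cxcl12, chr6:117168285-117168534, plus strand: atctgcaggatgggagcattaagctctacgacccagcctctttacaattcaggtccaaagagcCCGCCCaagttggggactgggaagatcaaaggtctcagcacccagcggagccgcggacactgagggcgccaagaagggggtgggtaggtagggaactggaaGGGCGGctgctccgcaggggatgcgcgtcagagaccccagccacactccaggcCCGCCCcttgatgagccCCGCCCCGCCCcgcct
The letters searched were TATAAA (the TATA box), GGGCGG (the GC box), TGTGGT (RUNX factors), TGANTCA (AP-1) and GGGANNNTCC (NF-kB). The Tnfsf11 window held 1 TATA box, from 32 to 27 bases before the start and on the strand opposite to the gene, as do 12.4% of the 32851 promoters on 1 strand or the other. Csf1 held 2 GC boxes and 1 stretch that matched the NF-kB letters on both strands. Cxcl12 held 5 GC boxes, of which the pair nearest the start overlapped by 1 base. GC boxes stood in 32.7% of all promoters and NF-kB letters in 3.86%. The RUNX letters, found in 4614 promoters, and the AP-1 letters, found in 2217, were in none of these 3 windows. A match shows only that the letters are there.

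Levels between genes are given as FPKM, that is fragments scaled to exon length and library size, with TMM factors between libraries. A gene entered the test if it was above 1 FPKM, before that scaling, in at least 50% of the 18 libraries, and 11469 genes did. Csf1 was above it in 18 libraries, Tnfrsf11b in 15 and Cxcl12 in 13. Tnfsf11 was above it in 9 libraries, exactly the number required, and 6 of these were bone. Il34 was above it in 0 libraries, did not enter the test and is described from its counts. Without any 1 of its 9 libraries Tnfsf11 did not enter, so its tests could be repeated only without the other 9. Since Tnfsf11 passed mainly through bone, its passing already favors a difference between tissues.

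RANKL transcripts were concentrated in bone. Tnfsf11 stood at 1.65, 2.66 and 1.82 FPKM in Fgfr2+/+ bone, and at 3.62, 2.56 and 2.25 FPKM in Fgfr2+/S252W bone. In MC it stood at 1.83, 0 and 0 FPKM in Fgfr2+/+ and at 0.120, 0.302 and 2.43 FPKM in Fgfr2+/S252W embryos. In condylar cartilage it stood at 0.370, 0.111 and 0.363 FPKM in Fgfr2+/+ and at 0.0599, 0.346 and 1.95 FPKM in Fgfr2+/S252W embryos. Thus 9 of the 12 cartilage libraries lay below every bone library, and 3 overlapped with bone. These 3 were MC Fgfr2+/+ replicate 1 with 44 fragments, MC Fgfr2+/S252W replicate 3 with 31 and condylar Fgfr2+/S252W replicate 3 with 34, the last pair from the same embryo. The other cartilage libraries held between 0 and 11 fragments. A count of 0 still allows up to 3 fragments in a library of that depth.

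**Figure D1:**
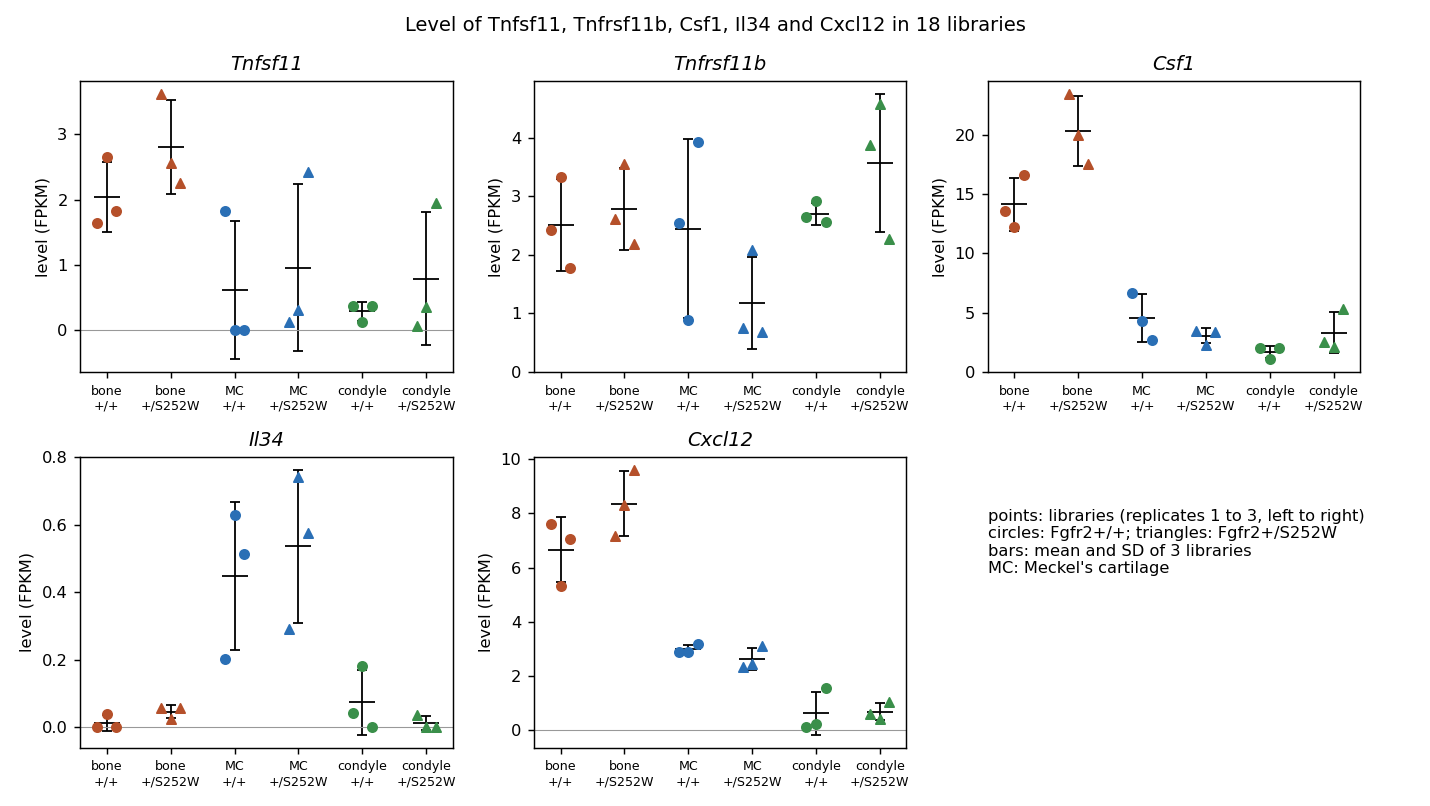
Level of the 5 members in each library, in FPKM on a linear axis for each gene, by tissue and genotype. Points are libraries, and the bars give the mean and SD of 3 libraries. Csf1 and Cxcl12 in bone lie above every cartilage library, Tnfsf11 is high in bone and in 3 cartilage libraries, Tnfrsf11b spreads over all tissues, and Il34 stays below 0.740 FPKM with its highest values in MC.

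OPG transcripts did not follow the same pattern. Tnfrsf11b stood at 2.42, 3.33 and 1.78 FPKM in Fgfr2+/+ bone and at 2.62, 3.56 and 2.18 FPKM in Fgfr2+/S252W bone. In condylar cartilage it stood at 2.64, 2.92 and 2.56 FPKM in Fgfr2+/+ and at 3.87, 4.58 and 2.28 FPKM in Fgfr2+/S252W embryos. In MC it stood at 2.54, 0.883 and 3.93 FPKM in Fgfr2+/+ and at 0.759, 2.08 and 0.683 FPKM in Fgfr2+/S252W embryos. The ranges of all 3 tissues overlapped, and MC held both some of the highest and the lowest libraries.

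CSF1, the growth factor of the monocyte lineage, had the highest level of the members in every bone library. Csf1 stood at 13.6, 12.2 and 16.7 FPKM in Fgfr2+/+ bone and at 23.5, 20.03 and 17.6 FPKM in Fgfr2+/S252W bone. In MC it stood at 6.64, 4.31 and 2.63 FPKM in Fgfr2+/+ and at 3.45, 2.28 and 3.36 FPKM in Fgfr2+/S252W embryos. In condylar cartilage it stood at 1.99, 1.08 and 1.96 FPKM in Fgfr2+/+ and at 2.54, 2.06 and 5.27 FPKM in Fgfr2+/S252W embryos. Every bone library lay above every cartilage library, while MC and condylar cartilage overlapped.

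The chemokine gene Cxcl12 was graded over the tissues. It stood at 7.61, 5.31 and 7.05 FPKM in Fgfr2+/+ bone and at 7.18, 8.31 and 9.61 FPKM in Fgfr2+/S252W bone. In MC it stood at 2.88, 2.89 and 3.17 FPKM in Fgfr2+/+ and at 2.33, 2.45 and 3.10 FPKM in Fgfr2+/S252W embryos. In condylar cartilage it stood at 0.126, 0.209 and 1.54 FPKM in Fgfr2+/+ and at 0.589, 0.408 and 1.04 FPKM in Fgfr2+/S252W embryos. The 3 tissues did not overlap at all for this gene.

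Il34, the second ligand of CSF1R, was close to the limit of detection. It had 31 fragments summed over the 6 MC libraries (exact Poisson 95% interval 21.1 to 44.0), 6 over the bone libraries (2.20 to 13.1) and 6 over the condylar libraries. Each MC library held 4 to 6 fragments, and 5 of the other 12 libraries held none. The mean level was 0.899 ± 0.375 CPM in MC (SD, n = 6), 0.0545 ± 0.0479 CPM in bone and 0.0791 ± 0.129 CPM in condylar cartilage. These values carry TMM factors, by which MC was 16.5-fold above bone and 11.4-fold above condylar cartilage. Scaled to library totals alone, the means were 0.547, 0.0764 and 0.0934 CPM, and the folds 7.16 and 5.85. On either scale MC was higher than bone in 6 of 6 embryos and higher than condylar cartilage in 6 of 6 (exact sign-flip permutation test over embryos, two-sided, p = 0.03125, the smallest that 6 embryos allow, adjusted p = 0.046875 over 3 pairs of tissues). The test and the scaling to totals were chosen after the counts had been seen.

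The fit across all 11469 genes put numbers on these tissue differences, taken as the mean over both genotypes. Between bone and MC, 3 of the 4 tested members were higher in bone, where 26.6% of all genes were called higher. The filter shaped this count, since Tnfsf11 entered mainly through bone and Il34 was left out. Without a filter Il34 was log2 -3.42 for bone minus MC (limma adjusted p = 0.000104). Csf1 was 4.52-fold higher (log2 2.18, SE 0.23, limma adjusted p = 1.9e-07), Cxcl12 2.66-fold higher (log2 1.41, SE 0.23, limma adjusted p = 4.3e-05) and Tnfsf11 7.57-fold higher (log2 2.92, SE 0.76, limma adjusted p = 0.00342). For Tnfsf11 the call depended on the test, since edgeR gave log2 1.53 (adjusted p = 0.0895) and DESeq2 log2 1.60 (adjusted p = 0.167). With the embryo as a replicate block it was log2 2.02 (limma adjusted p = 0.0371). Tnfrsf11b differed by log2 0.80 (SE 0.34, 95% interval 0.09 to 1.51, limma adjusted p = 0.0559). Leaving out any of 6 libraries brought this below 0.05, with limma adjusted p between 0.0274 and 0.0471. They were bone Fgfr2+/+ and Fgfr2+/S252W replicate 3, MC Fgfr2+/+ replicates 1 and 3, MC Fgfr2+/S252W replicate 2 and condylar Fgfr2+/S252W replicate 3.

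Between bone and condylar cartilage, the same 3 members were higher in bone, where 25.2% of all genes were called higher and 23.6% lower. The filter shaped this count in the same way, and Il34 was log2 -0.26 without it (limma adjusted p = 0.743). Cxcl12 was 16.5-fold higher (log2 4.04, SE 0.32, limma adjusted p = 2.2e-09), Tnfsf11 8.06-fold higher (log2 3.01, SE 0.64, limma adjusted p = 0.00058) and Csf1 7.80-fold higher (log2 2.96, SE 0.22, limma adjusted p = 6.5e-10). The Tnfsf11 difference fell to log2 2.37 without condylar Fgfr2+/S252W replicate 1, and over 8 other settings it lay between log2 2.32 and 3.25 with adjusted p of at most 0.0417, by DESeq2. For Tnfrsf11b the difference was log2 -0.28 (95% interval -0.79 to 0.23, limma adjusted p = 0.364). In bulk tissue such differences cannot tell fewer cells of a type from less RNA per cell.

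The 2 cartilages differed from each other in Tnfrsf11b, Csf1 and Cxcl12, and not detectably in Tnfsf11. Tnfrsf11b was 2.11-fold higher in condylar cartilage than in MC (log2 1.08, SE 0.35, limma adjusted p = 0.0118), where 28.4% of all genes were called higher. Csf1 (log2 -0.79, SE 0.27, limma adjusted p = 0.0181) and Cxcl12 (log2 -2.63, SE 0.36, limma adjusted p = 2.8e-06) were lower, as were 27.8% of all genes. For Csf1 this was log2 0.08 (limma adjusted p = 0.834) with library totals in place of TMM factors, a scaling that moved the median of all genes from 0.014 to 0.79 on the log2 scale. Without a filter it was log2 -0.65 (limma adjusted p = 0.0795). The Csf1 call was also lost without MC Fgfr2+/+ replicate 1 (log2 -0.55, limma adjusted p = 0.0892), MC Fgfr2+/S252W replicate 1 (0.0635), condylar Fgfr2+/S252W replicate 2 (0.0510) or condylar Fgfr2+/+ replicate 2 (0.0569). The scaling to library totals moved the median of bone minus MC to 1.10, and Tnfrsf11b was then called higher in bone (log2 1.86, limma adjusted p = 0.000121). Tnfsf11 did not pass between the cartilages (log2 -0.09, 95% interval -2.03 to 1.85).

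**Figure D2:**
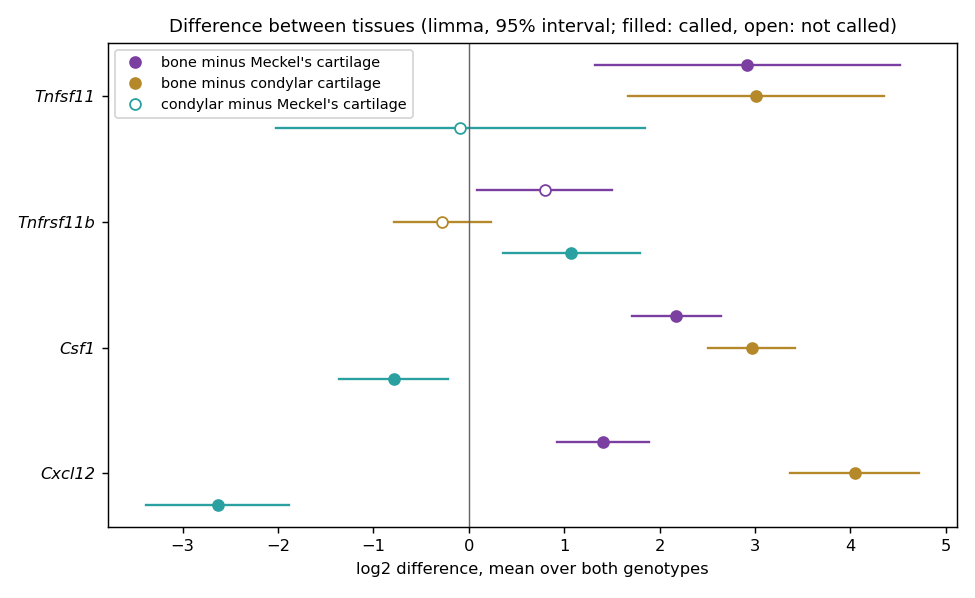
Tissue differences of the 4 tested members, as log2 differences averaged over both genotypes, with limma's 95% intervals. Filled circles mark an adjusted p below 0.05. Csf1 and Cxcl12 lie to the right of 0 in both comparisons with bone, whereas Tnfrsf11b lies near 0 between bone and condylar cartilage and Tnfsf11 has the widest intervals.

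The ratio of RANKL to OPG transcripts was formed within each library from fragments per kb, with 0.5 fragments added to each gene, and needs no scaling between libraries. In bone it was 0.682, 0.799 and 1.02 in Fgfr2+/+ and 1.38, 0.721 and 1.03 in Fgfr2+/S252W embryos. In condylar cartilage it was 0.146, 0.0443 and 0.149 in Fgfr2+/+ and 0.0193, 0.0796 and 0.861 in Fgfr2+/S252W embryos. In MC it was 0.724, 0.0467 and 0.0106 in Fgfr2+/+ and 0.191, 0.166 and 3.45 in Fgfr2+/S252W embryos. In bone the transcripts were thus near balance in all 6 libraries, while the cartilages reached from a large excess of OPG to an excess of RANKL in 1 library. That library, MC Fgfr2+/S252W replicate 3, rested on 31 against 11 fragments (exact binomial 95% interval of the ratio 1.74 to 7.83, counting error only). In the MC libraries without a Tnfsf11 fragment the exact intervals reached up to 0.414 and 0.0813.

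The ratio was higher in bone than in condylar cartilage in 6 of 6 embryos (mean log2 difference 3.13, SD 1.97, exact sign-flip permutation p = 0.03125, the smallest possible, adjusted p = 0.09375 over 3 pairs of tissues). It was higher in bone than in MC in 4 of 6 embryos (log2 difference 2.31, SD 2.97, exact permutation p = 0.125, adjusted p = 0.1875). This value ran from log2 1.45 without Fgfr2+/+ embryo 3 to 3.11 without Fgfr2+/S252W embryo 3, and was log2 0.89 from the summed fragments of each tissue. It was higher in condylar cartilage than in MC in 1 of 6 embryos (log2 difference -0.83, SD 2.53, exact permutation p = 0.469). That difference ran from log2 -1.75 without Fgfr2+/+ embryo 3 to -0.33 without Fgfr2+/S252W embryo 1. The ratios from summed fragments were 0.134 in condylar cartilage and 0.499 in MC. None of the pairs of tissues passed after adjustment. Between genotypes the mean log2 ratio differed by 0.29 in bone (exact permutation p = 0.4), by 2.75 in MC (exact permutation p = 0.4) and by 0.15 in condylar cartilage (exact permutation p = 1). Libraries of the genotypes overlapped in each tissue, and 3 against 3 libraries cannot reach a p below 0.1. The bone value ran from log2 0.067 without Fgfr2+/S252W replicate 1 to 0.54 without Fgfr2+/S252W replicate 2. The MC value ran from log2 1.33 without Fgfr2+/S252W replicate 3 to 4.43 without Fgfr2+/+ replicate 1. It was log2 1.54 with 3 fragments added in place of 0.5, and log2 1.20 from summed fragments.

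**Figure D3:**
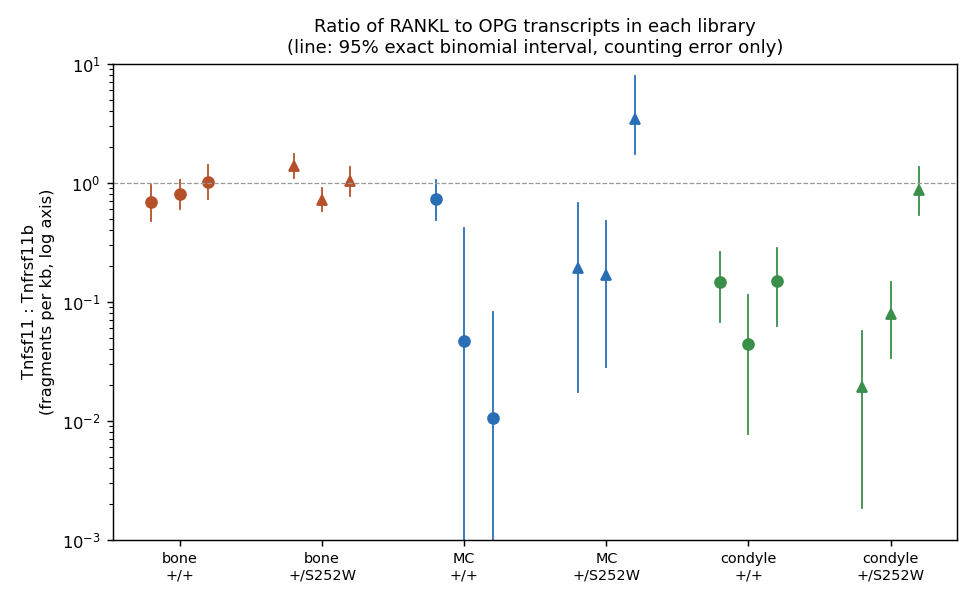
Ratio of Tnfsf11 to Tnfrsf11b in each library, from fragments per kb, on a log axis. Vertical lines are exact binomial 95% intervals, which cover counting error only and run to the lower edge where Tnfsf11 had 0 fragments. The 6 bone libraries lie between 0.682 and 1.38, and the cartilage libraries between 0.0106 and 3.45.

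The high Tnfsf11 values in cartilage stood beside high sums of the osteoblast markers. The summed osteoblast markers were 19880 CPM in condylar Fgfr2+/S252W replicate 3, against 5076 to 12510 CPM in the other condylar libraries. They were 4035 CPM in MC Fgfr2+/+ replicate 1 and 2968 CPM in MC Fgfr2+/S252W replicate 3, against 1615 to 2484 CPM in the other MC libraries. MC Fgfr2+/+ replicate 1 also had the highest sum of the 10 osteoclast markers of any cartilage library, 292 CPM, and the lowest sum of chondrocyte markers, 374 CPM. Of the 10 osteoblast markers, Bglap, which encodes osteocalcin, had no fragment in any MC library and stood at 19.2 and 43.6 FPKM in bone of the genotypes. Bglap2 had none in Fgfr2+/+ MC and in Fgfr2+/+ condylar cartilage. The 3 cartilage libraries with most Tnfsf11 were thus the highest in summed osteoblast markers within their tissue. In Fgfr2+/S252W MC Col1a1 had the highest mean of the 10, 340.5 against 3383 FPKM in bone of that genotype. Ibsp stood at 2.65 against 1829 FPKM and Phex at 0.315 against 58.2 FPKM. Osteoclast markers in MC Fgfr2+/S252W replicate 3 summed to 79.6 CPM, below every Fgfr2+/+ MC library. The part of captured bone in the Tnfsf11 values was not tested.

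**Figure D4:**
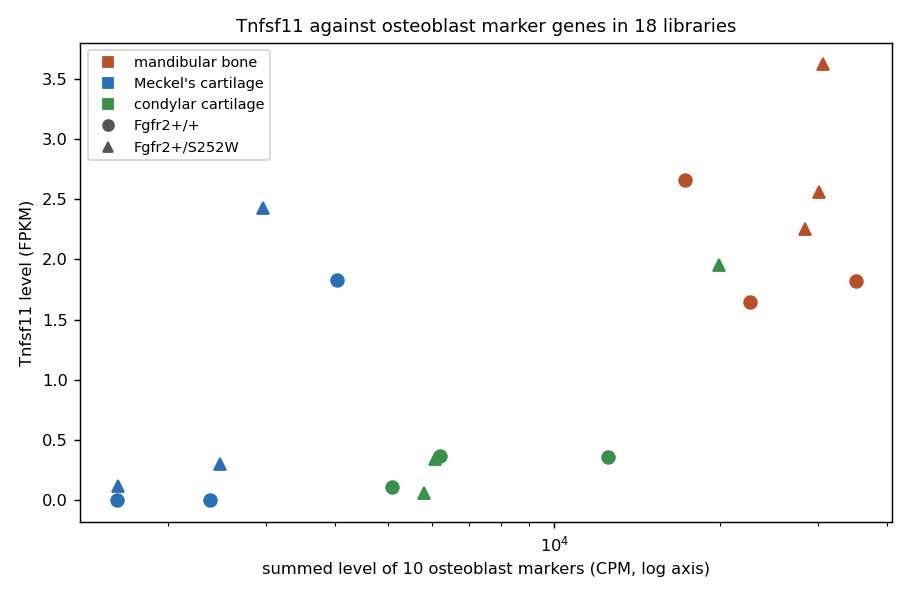
Tnfsf11 level in FPKM against the summed level of 10 osteoblast markers in CPM (log axis) in each of 18 libraries, by tissue and genotype. Within MC and within condylar cartilage the libraries with Tnfsf11 above 1 FPKM are those farthest to the right, while the 6 bone libraries lie between 1.65 and 3.62 FPKM.

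Between Fgfr2+/S252W and Fgfr2+/+ embryos none of the 4 tested members passed the test in any tissue. In bone 0 of the 4 tested members were called, where 0.0872% of all genes were. Their median difference was log2 0.40, against 0.00 over all genes tested. The largest was that of Csf1, 1.44-fold (log2 0.52, SE 0.22, 95% interval 0.06 to 0.98, limma adjusted p = 0.561), with every mutant library above every Fgfr2+/+ library. It was the only 1 of the 4 without overlap in bone, where 20.4% of all genes had none. Tnfsf11 differed by log2 0.47 (SE 0.53, limma adjusted p = 0.906), Cxcl12 by log2 0.33 (SE 0.25, limma adjusted p = 0.822, and log2 0.18 without Fgfr2+/+ replicate 2) and Tnfrsf11b by log2 0.20 (SE 0.33, limma adjusted p = 0.946).

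The size of the Csf1 difference in bone depended little on the settings, and its call depended on them more. Over 13 other settings its difference lay between log2 0.51 and 0.71, and 3 of them called it. These were sample quality weights (log2 0.58, limma adjusted p = 0.0340, where 2.4% of all genes were called higher), the 6 bone libraries alone under edgeR's quasi-likelihood test without a filter (log2 0.55, adjusted p = 0.0165, where 1.47% were) and the bone libraries alone without Fgfr2+/+ replicate 3 (log2 0.63, limma adjusted p = 0.0146, where 5.33% were), the last pair of settings chosen after the data had been seen. With the bone libraries alone and all 6 of them, limma gave log2 0.52 (adjusted p = 0.145). With the 12 libraries of bone and MC alone, also chosen after the data had been seen, it gave log2 0.52 (adjusted p = 0.472), and no member was called between genotypes. In the same bone libraries the osteoclast markers summed to 1012 to 1318 CPM in Fgfr2+/+ and to 1913 to 2643 CPM in Fgfr2+/S252W embryos, and the red blood cell markers to 1257 to 1506 CPM against 315 to 597 CPM. Chondrocyte markers (91.7 to 239 against 288 to 388 CPM), macrophage markers (66.5 to 86.5 against 105 to 142 CPM) and pericyte markers (169 to 206 against 147.5 to 153 CPM) did not overlap between the genotypes either. Skeletal muscle markers overlapped (23.3 to 221 against 1.54 to 25.7 CPM), and the 3 tested had a median of log2 -3.29, each at an unadjusted limma p below 0.05. These sums did not stand for their whole lists. The macrophage sum was mostly Cd68, also a gene of osteoclasts (47.8 against 91.9 FPKM), whereas C1qb (log2 -2.25) and C1qc (log2 -1.68) had the opposite sign and the median of the 3 tested was log2 -1.68. The chondrocyte sum was led by Col2a1 (20.7 against 54.4 FPKM), whereas Acan had log2 -2.20, and 5 of 9 tested lay above 0 with a median of log2 0.16. In the main limma fit of all 18 libraries no gene of these lists was called in bone. Of the chondrocyte and macrophage genes just named, sample quality weights called Col2a1 and Cd68 higher and C1qb lower, where 2.4% of all genes were called higher. The bone libraries alone called Cd68 higher and C1qb lower, where 0.609% were called higher. Both settings also called osteoclast markers, as given below. The part of any of these in the Csf1 values was not tested.

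In MC 0 of 4 members were called, as were 0% of all genes, and 0 of 4 were free of overlap, where 13.5% of all genes were. Differences were log2 1.29 for Tnfsf11 (SE 1.44), -1.12 for Tnfrsf11b (SE 0.59), -0.56 for Csf1 (SE 0.39) and -0.19 for Cxcl12 (SE 0.39), with limma adjusted p between 0.369 and 0.858. Tnfsf11 in MC rested on 1 library of each genotype, and its interval ran from log2 -1.70 to 4.29. It was log2 0.28 without Fgfr2+/+ replicate 3, 2.33 without Fgfr2+/S252W replicate 1 and between 0.39 and 2.68 over 10 other settings. The Csf1 difference was log2 -0.12 without MC Fgfr2+/+ replicate 1, and that of Cxcl12 log2 -0.081 without Fgfr2+/S252W replicate 1. Beside these values, 3 marker sums did not overlap between the genotypes in MC. Osteoclast markers summed to 97.7 to 292 CPM in Fgfr2+/+ and to 70.5 to 79.6 CPM in Fgfr2+/S252W embryos, macrophage markers to 22.4 to 61.2 against 67.6 to 100.3 CPM, and pericyte markers to 120.0 to 223 against 237.5 to 324 CPM. Chondrocyte markers overlapped in their sums, and 9 of 9 tested lay above 0 with a median of log2 1.18. In the limma fit of all 18 libraries no gene of these lists was called in MC. By edgeR and by DESeq2 1 osteoclast marker, Acp5, was called lower in Fgfr2+/S252W embryos, where 0.462% and 2.1% of all genes were. The part of these cells in the members' values was not tested.

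In condylar cartilage 0 of 4 were called, as were 0% of all genes. Csf1 differed by log2 0.83 (SE 0.38, limma adjusted p = 0.998) and was the 1 of 4 without overlap, where 9.77% of all genes had none. It was log2 0.51 without Fgfr2+/S252W replicate 3, the library with the highest Csf1 level of that tissue (5.27 FPKM) and the highest sum of osteoblast markers (19880 CPM), whose part in this value was not tested. The others differed by log2 0.86 for Cxcl12 (SE 0.60), 0.40 for Tnfrsf11b (SE 0.36) and 0.23 for Tnfsf11 (SE 1.18). The Tnfrsf11b value ran from log2 0.22 without Fgfr2+/S252W replicate 2 to 0.63 without Fgfr2+/S252W replicate 3, and the Cxcl12 value from log2 0.12 without Fgfr2+/+ replicate 1 to 1.86 without Fgfr2+/+ replicate 3. At an unadjusted limma p below 0.05 stood 932 genes for bone, 1761 for MC and 351 for the condyle, and of the members Csf1 in bone and in condylar cartilage. DESeq2 called 423 genes in MC and 3 in condylar cartilage, edgeR 90 and 0, and neither called a member.

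**Figure D5:**
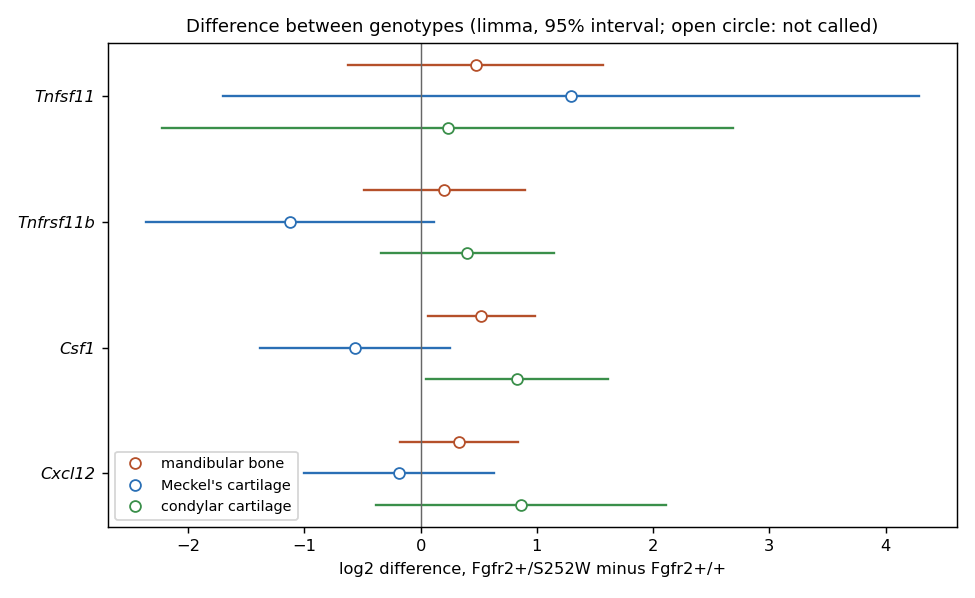
Difference between Fgfr2+/S252W and Fgfr2+/+ libraries in log2, with limma's 95% intervals, for the 4 tested members in each tissue. All circles are open, since no adjusted p was below 0.05, and only Csf1 in bone and in condylar cartilage has an interval that leaves out 0.

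Whether the mutation's effect differed between tissues was tested with interaction terms. Against MC, 0 of 4 members were called, where 0.0523% of all genes were. Csf1 had log2 1.09 (SE 0.45, 95% interval 0.15 to 2.03, limma adjusted p = 0.404) and Tnfrsf11b log2 1.33 (SE 0.68, limma adjusted p = 0.489). Without MC Fgfr2+/+ replicate 1 the Csf1 term was log2 0.65. Tnfsf11 had log2 -0.82 (SE 1.53) and Cxcl12 log2 0.52 (SE 0.46). Against condylar cartilage 0 of 4 were called, as were 0% of all genes, and the terms lay between log2 -0.53 and 0.24. At an unadjusted limma p below 0.05 stood 344 genes, none of them a member, and DESeq2 called 5.

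The receptors and other binding partners of these ligands were followed as a list of 8 genes, of which 6 entered the test. Csf1r, the receptor of CSF1 and IL34, stood at 12.3 ± 0.315 FPKM in Fgfr2+/+ bone and 23.8 ± 3.64 FPKM in Fgfr2+/S252W bone (SD, n = 3), and Tnfrsf11a, which encodes RANK, at 6.32 ± 0.303 and 11.8 ± 1.71 FPKM. Their differences were log2 0.94 (SE 0.20, limma adjusted p = 0.0763) and log2 0.89 (SE 0.20, limma adjusted p = 0.0984). Sdc1, a cell surface proteoglycan that binds IL34, differed by log2 0.42 (SE 0.22, limma adjusted p = 0.650). None of the 6 was called between genotypes in the main limma fit (18 libraries, FPKM filter, no quality weights). Their median in bone was log2 0.30. The study reports Csf1r and Tnfrsf11a as upregulated in mutant bone, with more Csf1r-positive cells there by in situ hybridization. Csf1r and Tnfrsf11a were called higher in Fgfr2+/S252W bone with sample quality weights and with the bone libraries alone, where 2.4% and 0.609% of all genes were called higher. Csf1r was also called without a filter, where 0.139% were. Cxcr4, the receptor of CXCL12, and Tnfsf10, another ligand of OPG, did not enter the test.

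By tissue, 4 of the 6 were higher in bone than in MC and 0 lower, where 26.6% of all genes were higher and 24.5% lower. Against condylar cartilage 4 were higher and 1, Ackr3, lower, beside 25.2% and 23.6% of all genes. Csf1r stood at 3.09 and 5.73 FPKM in MC and at 1.15 and 0.743 FPKM in condylar cartilage of Fgfr2+/+ and Fgfr2+/S252W embryos. Tnfrsf11a was at 3.46 and 1.78 FPKM in MC and at 0.312 and 0.298 FPKM in condylar cartilage. Ptprz1, a receptor of IL34, was at 31.3 and 33.5 FPKM in bone and at 0.878 and 0.954 FPKM in MC, the tissue with most Il34 fragments. Ackr3, a receptor that takes up CXCL12, was at 22.7 and 24.4 FPKM in condylar cartilage, where Cxcl12 was lowest, and at 3.77 and 1.87 FPKM in bone. With library totals in place of TMM factors 6 of 6 were higher in bone than in MC. That scaling moved the median of all genes from log2 0.02 to 1.10, so the shares above do not apply to it. RLE factors and DESeq2 gave the same counts as TMM.

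Downstream of RANK, 15 of 19 signaling genes entered the test and 0 were called by genotype in bone (limma, median log2 0.26). Sample quality weights called 2 of them higher, Nfatc1 and Plcg2, where 2.4% of all genes were called higher. The 3 with the smallest p were Nfatc1, the master transcription factor of osteoclasts (log2 0.64, limma adjusted p = 0.265), Plcg2, a phospholipase of the calcium branch (log2 0.74, limma adjusted p = 0.393), and Traf6, the adaptor of RANK (log2 0.26, limma adjusted p = 0.704). By tissue, 11 of the 15 were higher in bone than in condylar cartilage and 0 lower, while 7 were higher and 4 lower in bone than in MC. Over all genes the shares with TMM factors were 25.2% higher and 23.6% lower against condylar cartilage, and 26.6% and 24.5% against MC, so that the share of lower genes against MC was near that of all genes. With library totals, which moved the median of all genes to log2 1.10, the counts against MC were 13 and 0.

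Of 23 genes known to regulate RANKL or OPG, 11 entered the test and 0 were called by genotype in bone (limma, median log2 0.22). Sample quality weights called 3, Lifr, Sema3a and Vdr, where 2.4% of all genes were called higher. The fit without a filter called 1, Sema3a, where 0.139% were called higher. Sema3a, a secreted protein that restrains osteoclasts, stood at 12.2 ± 2.12 and 19.2 ± 1.504 FPKM in bone of the genotypes (log2 0.67, limma adjusted p = 0.114). Vdr, the vitamin D receptor, differed by log2 0.72 (limma adjusted p = 0.473) and Tnfaip3, a brake on NF-kB, by log2 0.61 (limma adjusted p = 0.537). Against MC 5 of the 11 were higher in bone and 4 lower (7 and 1 with library totals, which moved the median of all genes to log2 1.10). Against condylar cartilage 5 were higher and 2 lower. These stood beside the same shares of all genes, 26.6% and 24.5% against MC and 25.2% and 23.6% against condylar cartilage, and the 2 lower genes did not exceed that share. The cytokine genes Il6, Il11 and Osm had at most 2 fragments in any library.

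Among proteases that shed RANKL or cleave these ligands, 3 of 6 entered the test. Mmp14 differed by log2 0.44 in bone (limma adjusted p = 0.492). It was called with sample quality weights, where 2.4% of all genes were called higher. Adam10 differed by log2 0.23 (limma adjusted p = 0.799) and Adam17 by log2 0.00 (limma adjusted p = 0.998), while Mmp7 and Ctsg had 0 fragments in all 18 libraries. Of 10 other colony-stimulating and chemokine ligands only Ccl9 entered the test (log2 -0.25, limma adjusted p = 0.907), and Csf2 had 0 fragments throughout. Of the 10 osteoclast markers 6 entered the test, and all 6 were higher in bone than in either cartilage under each scaling. With TMM factors 26.6% of all genes were higher against MC and 25.2% against condylar cartilage. Between genotypes in bone 0 of the 6 were called, where 0.0872% of all genes were, with a median of log2 0.84. All 6 lay above 0 and all 6 had an unadjusted limma p below 0.05, as had 932 of all 11469 genes. The 3 with the smallest p were Ctsk (log2 0.73, limma adjusted p = 0.140), Mmp9 (log2 1.21, limma adjusted p = 0.140) and Acp5 (log2 0.80, limma adjusted p = 0.187). The other 4 did not enter, since too few cartilage libraries were above 1 FPKM for them. When only the 12 libraries of bone and MC were filtered and fitted, all 10 entered and 2 were called higher in Fgfr2+/S252W bone, where 0.109% of the 11919 genes kept were called higher. These were Oscar, a receptor that costimulates osteoclasts (log2 1.23, SE 0.20, limma adjusted p = 0.0308), and Calcr, the calcitonin receptor (log2 1.40, SE 0.24, limma adjusted p = 0.0310). The same pair was called with filterByExpr, the filter of edgeR on low counts, where 0.0941% of all genes were called higher. Sample quality weights called 6 of 6 higher, the fit without a filter 6 of 10 and the bone libraries alone 10 of 10, beside 2.4%, 0.139% and 0.609% of all genes. The study reports Acp5, Calcr, Ctsk, Itgb3 and Oscar as upregulated in mutant bone. It also counted more osteoclasts per bone area there by tartrate-resistant acid phosphatase staining.

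Over the 18 libraries, the genes whose log2 levels were most like those of a member were found by Pearson's r, given as a description without a p, since libraries share tissue and embryo. For Csf1 they were Bmp3 (0.97), Serpinf1 (0.97) and Adam12 (0.96), and for Cxcl12 Parvb (0.98), Pard6g (0.96) and Etv1 (0.96). For Tnfsf11 they were Pqlc1 (0.91), Tuba1c (0.89) and Rasl11a (0.89), and for Tnfrsf11b Eif2s3x, Hspa13 and Gmfb (each 0.88). Among the members, r was 0.82 for Csf1 with Cxcl12, 0.67 for Csf1 with Tnfsf11 and 0.05 for Tnfsf11 with Tnfrsf11b.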

How the data were processed

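RNA of 18 laser-captured tissue samples was amplified, sequenced in pairs and mapped to mm10 by the authors with STAR. The deposited values are counts of fragments per gene made with featureCounts 1.5.0-p1 on Ensembl 75 exons without regard to strand, neither normalized nor filtered. Whether PCR duplicates were removed is not given in the sources used here. Fragments are not independent molecules after amplification, so intervals from counts cover counting error only. Whether embryos came from separate litters is not stated.

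The fits used limma 3.58.1 and edgeR 4.0.16 under R 4.3.3. A gene was kept where 50% or more of the libraries exceeded 1 FPKM. TMM factors and voom weights followed, and a mean for each of 6 groups was fitted to all 18 libraries. The filter, the scaling and a model of every sample group follow the methods of the study. For this experiment the study describes bone and MC, and condylar libraries are fitted here as well. Numbers of genes called need not be those of the study. With the 12 libraries of bone and MC alone, 25 genes were called in bone, against 10 with all 18. The part of the condylar libraries in any gap to the study was not tested. A gene was called at a Benjamini-Hochberg adjusted p below 0.05 over 11469 genes. The fit was tested on simulated data first. Permutation tests were exact and two-sided. The tissues of an embryo are paired by its identifier, although deviations from group means correlated by a mean of only 0.00 over 18 pairs. The alternatives were edgeR, DESeq2 1.42.0, other filters, scalings and weights, replicate blocks, 1 tissue alone and each library left out.

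The members, the gene lists and their markers were chosen with earlier results of these data known. Named are the members, up to 3 genes of each list with the smallest p by genotype in bone, the 3 genes most like each member, leading markers and genes without fragments. Other genes and libraries named were chosen after their values were seen. Promoters are those of RefSeq on GRCm38.p6.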

Additional observations from a re-analysis of the deposited data

How the results depend on the processing

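Counts of all genes called between genotypes depended strongly on the fit. In bone, 10 genes were called in the fit reported. There were 4 with edgeR, 18 with DESeq2, 21 with filterByExpr, 53 without a filter and 589 with sample quality weights. Bone libraries alone gave 141, and library totals 1. Of the settings added once the data had been seen, library totals among them, the tissue alone with a replicate block gave 554, the tissue alone with edgeR without a filter 885, the 12 libraries of bone and MC alone 25 and bone alone without Fgfr2+/+ replicate 3 gave 1370. Of the members, 1 (Csf1) was called with quality weights, with edgeR on bone alone and without that replicate, where Tnfrsf11b stood at log2 -0.053. In MC, against 0, edgeR gave 90, DESeq2 423, no filter 45 and edgeR on the tissue alone 47. In condylar cartilage, against 0, DESeq2 gave 3, quality weights 2, the tissue alone with a replicate block 7 and edgeR on the tissue alone 43. For the interaction with MC, against 6, DESeq2 gave 94, filterByExpr 12, no filter 16, quality weights 10 and library totals 0. For that with condylar cartilage, against 0, DESeq2 gave 5 and quality weights 13. Without a filter the tissue comparisons called 13153, 9369 and 11356 of 25857 genes, and 5 of 5 members between bone and MC. Of these members Il34 was lower in bone (log2 -3.42, limma adjusted p = 0.000104) and the others were higher. The cause of these changes was not tested.

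Changes of sign concerned values that had not passed, except Csf1 between the cartilages, which was log2 0.084 with library totals. Tnfsf11 between condylar cartilage and MC was log2 6e-04 with filterByExpr, 0.26 without a filter, 0.029 with quality weights and 0.96 with library totals. Tnfrsf11b between bone and condylar cartilage was 0.046 with library totals, and its interaction with condylar cartilage 0.11. The interaction of Tnfsf11 was 0.0745 with edgeR against MC, and -0.88 with edgeR, -1.03 with DESeq2 and -0.45 with the embryo as replicate block against condylar cartilage. For Cxcl12 the latter was 0.22 with edgeR and 0.19 with DESeq2. With the replicate block in all 18 libraries no member's call changed, and Csf1 in bone stood at log2 0.52 (limma adjusted p = 0.426). Equal replicate numbers did not pair the genotypes, since their deviations correlated by -0.13 to 0.27 over 9 pairs.

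With each library left out in turn, genes called between genotypes numbered 0 to 91 in bone and 0 to 138 in MC, and interactions 0 to 27 against MC and 0 to 1 against condylar cartilage. Tnfrsf11b in bone ran from log2 -0.038 to 0.42, and Tnfsf11 in condylar cartilage from -0.29 to 1.499. Tnfsf11 between the cartilages ran from -0.59 to 0.54. Interactions against MC ran from -1.85 to 0.20 for Tnfsf11. Those against condylar cartilage ran from -1.03 to 0.76 for Tnfsf11, -0.44 to 0.0135 for Tnfrsf11b, -0.56 to 0.027 for Csf1 and -1.53 to 0.21 for Cxcl12. The genotype difference of the log2 ratio in condylar cartilage ran from -1.33 to 1.41. The ratio between bone and condylar cartilage stayed at log2 2.52 to 3.70 (2.92, 3.12, 3.20 and 3.31 between) with 1 embryo left out, where 5 embryos allow no p below the threshold. Calls of Csf1 and Cxcl12 between bone and each cartilage held in 18 of 18 such fits.

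Depth limited Tnfsf11 and Il34 in cartilage, where single libraries held 0 to 44 and 0 to 6 fragments.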
